A study of Mus musculus with 16 samples.

Results

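The genes described here encode the constitutive proteasome, the protease that degrades proteins tagged with ubiquitin. They were taken from the platform annotation as every gene with a probe set of its own whose symbol starts with Psma, Psmb, Psmc, Psmd or Psme, leaving out Psmb8, Psmb9 and Psmb10, which encode the immunoproteasome. The rule found 39 of 8251 genes, measured by 50 probe sets, and the probe set with the highest mean was used for each gene. Of these genes, 37 encode subunits, assembly chaperones or activators of the proteasome. The other 2, Psmc3ip, a factor of meiotic recombination, and Psme3ip1, a protein that binds the Psme3 activator, met the rule by symbol but encode none of these. The activator gene Psme2 is not among the 39, because both of its probe sets also carry the symbol of another gene.

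The proteasome has a barrel-shaped core of stacked rings, in which alpha subunits form the outer gate and beta subunits the chamber where proteins are cut. Psmb5, Psmb6 and Psmb7 carry the catalytic sites, and in immune cells or after interferon they are replaced by Psmb8, Psmb9 and Psmb10. A regulatory particle caps the core: its ATPase ring unfolds the substrate, and its other subunits bind ubiquitin and remove it. In the intestine, cells of the epithelium are renewed without pause, and the proteasome there also degrades beta-catenin, the protein that accumulates when the Apc tumour suppressor is lost.

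The 16 samples were ileal epithelium of mice, from the end of the small intestine, dissected with a laser and measured on Affymetrix MG_U74Av2 arrays after 2 rounds of RNA amplification. The titles put them in 3 groups, WT (n = 6), adenoma, a benign tumour (n = 5), and carcinoma, an invasive tumour (n = 5). The sources used here do not give genotype, age, treatment, tumour model or the number of animals, so the p-values measure the spread between these samples and are too small if captures of a group share an animal. Both tumour comparisons share the WT arrays, so they are given side by side and are not independent of each other.

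Signals are given as log2 of the deposited intensity, with values below 46.9 set to that floor, which is 5.55 on the log2 scale. Median intensity per array ran from 126.8 to 234.2. All 14 epithelial markers looked at were measured, and of these Slc10a2, an ileal bile acid transporter, was at the floor on every adenoma array. Their summed intensity was 75033 to 176699 in WT, 62598 to 93880 in adenoma and 46069 to 108567 in carcinoma. Of the 14, 10 were below 0 in adenoma and 11 in carcinoma, with 2 called lower in each. These were Fabp2, a fatty acid carrier of enterocytes, in both (-2.16 ± 0.63 and -3.43 ± 0.63), Cdx1 in adenoma and Krt20 in carcinoma. Krt18 had the largest difference above 0, at 1.38 ± 0.43 and 1.24 ± 0.43, and was not called. Of all genes tested, 40.1% and 41.1% were above 0, and 4.25% and 4.90% were called lower. The log2 signal of transcripts spiked into the hybridisations lay between 12.44 and 14.73 in WT, 11.38 and 13.47 in adenoma, and 11.56 and 12.70 in carcinoma. In 4 WT arrays (WT 1, 2, 4 and 5) it was above every tumour array. The log2 ratio of the 3' to the 5' Gapdh probe sets, a measure of RNA length, was 4.09 to 5.02 in WT, 5.52 to 6.12 in adenoma and 4.95 to 6.45 in carcinoma. The same ratio for beta-actin ran the other way, at 6.05 to 6.49, 5.46 to 6.19 and 5.54 to 6.56. The spike-in signal and the Gapdh ratio moved with the groups, and their part in the results below was not tested except where a value without those arrays, or with the measure as a covariate, is given.

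Most of the 39 proteasome genes averaged somewhat higher in both tumours than in WT, but 1 of them passed the test. The median log2 difference of the 39 genes was 0.40 in adenoma, where 31 were above 0, and 0.50 in carcinoma, where 32 were above 0. The same medians over all 7455 genes tested were -0.14 and -0.14, with 40.1% and 41.1% of genes above 0. All 39 genes passed the filter on dim genes. Psmb5 was higher in adenoma by limma's moderated test (adjusted p under 0.05), and no proteasome gene was lower. That is 1 of 39 in a comparison in which 8.28% of all genes were called, 4.02% higher and 4.25% lower. In carcinoma Psmb5 was again the 1 gene of 39 called, against 9.05% of all genes, 4.16% higher and 4.90% lower. A count of 1 in each comparison is too small to set the list apart from all genes, while the median of the list lay above theirs. At an unadjusted p under 0.05, 7 genes were higher and 1 lower in adenoma (9.20% and 13.8% of all genes), and 12 were higher and 0 lower in carcinoma (9.64% and 14.2%).

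**Figure D1:**
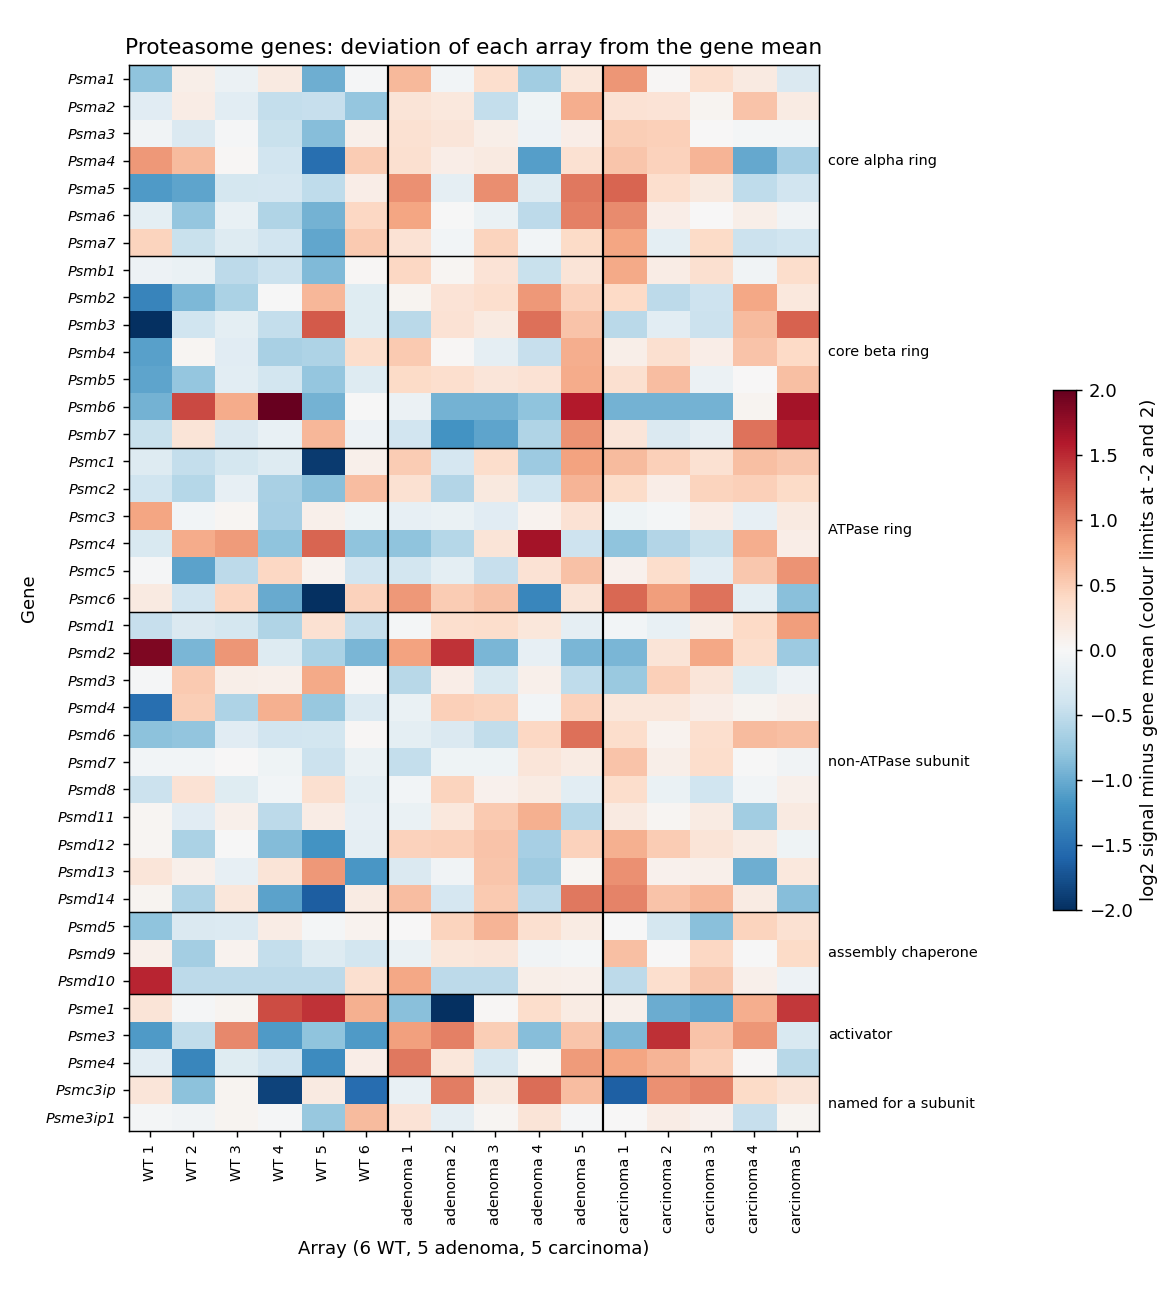
Heat map of the 39 proteasome genes (vertical axis, grouped by role) on the 16 arrays (horizontal axis), coloured by log2 signal minus the gene's mean over all arrays, with colours limited at -2 and 2. The WT columns hold more blue, and WT 5, adenoma 4, carcinoma 4 and carcinoma 5 differ from the other arrays of their groups in several genes.

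The size of this shift depended on which WT arrays were included. By array, the median deviation of the 39 genes from their own means was below 0 on all 6 WT arrays, from -0.53 on WT 5 to -0.03 on WT 6. It was 0.26, 0.05, 0.19, -0.06 and 0.38 on adenoma 1 to 5, and 0.32, 0.15, 0.17, 0.12 and 0.17 on carcinoma 1 to 5. WT 6 and adenoma 4 thus lay close together, and the other tumour arrays lay above every WT array. With those 4 WT arrays left out (WT 1, 2, 4 and 5), the median of the 39 genes was 0.18 in adenoma and 0.26 in carcinoma, against -0.06 and -0.06 for all genes. With spike-in signal added to the fit, it was 0.16 and 0.22, against -0.03 and -0.03. With the Gapdh ratio added instead, it was 0.35 and 0.41, against -0.11 and -0.11.

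**Figure D2:**
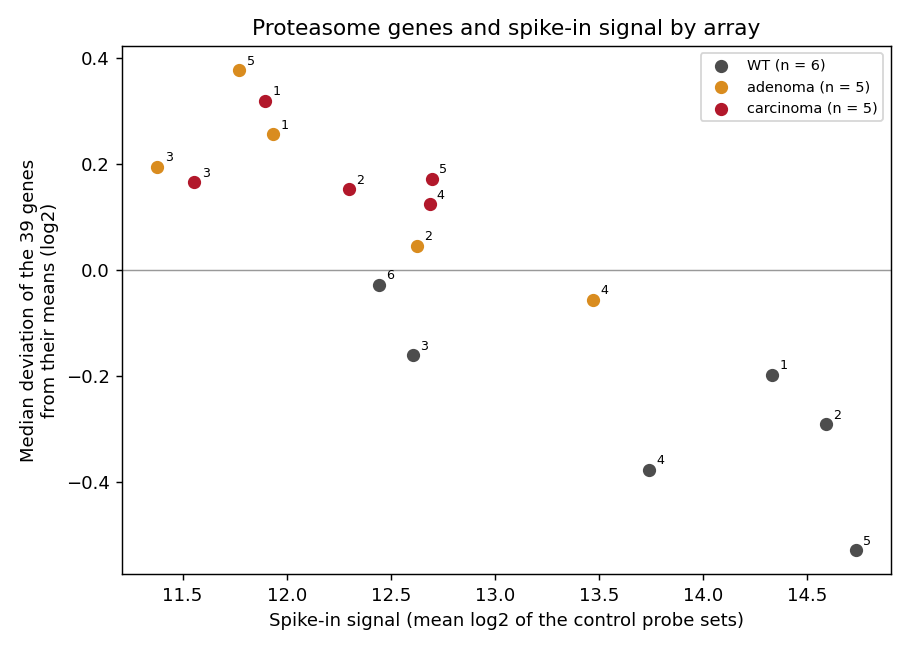
Each point is an array (replicate number beside it), with the mean log2 signal of the spiked-in control probe sets on the horizontal axis and the median deviation of the 39 proteasome genes from their means, in log2, on the vertical axis. WT 1, 2, 4 and 5 lie at the right with values from -0.53 to -0.20, while WT 3 and WT 6 have a spike-in signal like that of the tumours and values of -0.16 and -0.03.

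Most of the proteasome genes are bright on this array, and the median difference of the brightest genes in general was slightly above 0 in both tumours. Among the brightest 25% of all genes tested, which held 24 of the 39, the medians of the proteasome genes were 0.48 in adenoma and 0.58 in carcinoma, against 0.09 and 0.10 for all 1864 of these genes. There 22 of the 24 were above 0 in each tumour, against 57.5% of all genes that bright in each. Among the dimmest 25% the 5 proteasome genes had medians of 0.03 and -0.05, against -0.36 and -0.37. Scaling moved the median of all genes. With array medians aligned it was 0.12 in adenoma and 0.15 in carcinoma, and the proteasome genes were at 0.70 and 0.82, so that they lay 0.57 and 0.67 above it. As deposited, they lay 0.54 and 0.63 above the median of all genes, and after quantile normalization 0.40 and 0.54 above it.

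**Figure D3:**
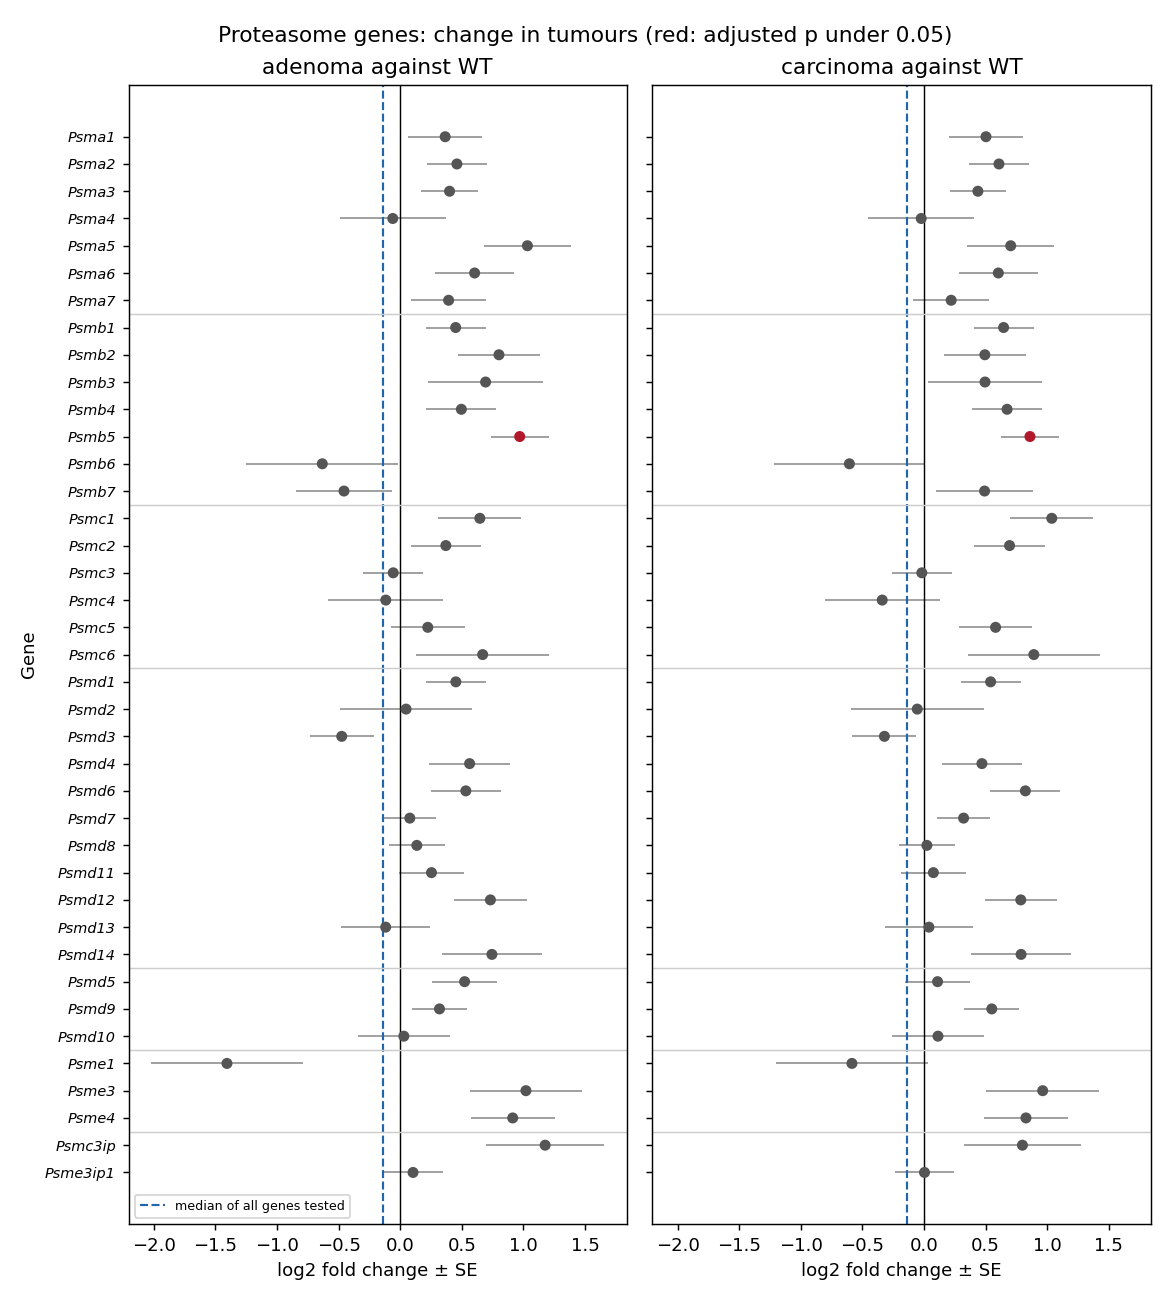
Log2 fold change ± SE of each of the 39 proteasome genes (vertical axis, grouped by role) in adenoma against WT (left) and in carcinoma against WT (right), with the median of all genes tested as a dashed line at -0.14. Psmb5, in red, is the gene with an adjusted p under 0.05 in each panel, and Psme1 has the lowest value in adenoma, -1.41.

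Psmb5 encodes the catalytic subunit with chymotrypsin-like activity and is the main target of proteasome inhibitor drugs. It was the 1 proteasome gene called, by the brighter of its 2 probe sets, while the other averaged lower in the tumours. The stretch upstream of its start is printed because it holds 1 match to TGACNNNGC, the core letters of the antioxidant response element that the transcription factors Nfe2l1 and Nfe2l2 bind. It covers the 250 bases before the start of transcription in RefSeq, chr14:54617996-54618245 of GRCm38.p6, minus strand, written 5′ to 3′ along the gene, with the match in capitals 47 to 39 bases before the start.
Psmb5: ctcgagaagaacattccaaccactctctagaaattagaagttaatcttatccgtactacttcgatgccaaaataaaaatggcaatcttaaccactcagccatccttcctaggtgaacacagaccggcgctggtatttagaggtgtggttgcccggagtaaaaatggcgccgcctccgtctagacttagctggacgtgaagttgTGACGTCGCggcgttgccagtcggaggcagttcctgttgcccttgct

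On WT arrays the Psmb5 signal ranged from 8.80 to 9.63, with a median of 9.27. It was 10.22, 10.18, 10.09, 10.14 and 10.58 on adenoma 1 to 5. Carcinoma 1 to 5 gave 10.16, 10.47, 9.72, 9.85 and 10.45. Every tumour array lay above every WT array, with the smallest gap at carcinoma 3. The log2 fold change was 0.97 ± 0.24 (SE) in adenoma, 1.96-fold, with a limma adjusted p of 0.0150. In carcinoma it was 0.86 ± 0.24, 1.81-fold, with a limma adjusted p of 0.0272. Psmb5 was the 1 proteasome gene in adenoma, and with Psmc1 and Psmd6 1 of 3 in carcinoma, whose groups did not overlap and lay above WT. Of all genes, 3.06% and 3.13% did so. No proteasome gene lay wholly below WT in either tumour, as 2.74% and 3.15% of all genes did.

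The rise of Psmb5 rests on 1 of its 2 probe sets. The other, dimmer one ranged from 8.16 to 9.23 in WT, with a median of 8.64. It was 7.63, 8.34, 7.90, 8.64 and 7.60 on adenoma 1 to 5, and 8.32, 7.64, 7.70, 8.45 and 8.35 on carcinoma 1 to 5. These values averaged lower in the tumours and overlapped with WT: the log2 difference was -0.61 ± 0.28 in adenoma (limma adjusted p = 0.199) and -0.54 ± 0.28 in carcinoma (limma adjusted p = 0.251). The probe set used has a name ending that marks probes shared between transcripts. Of the 39 genes, 6 were measured by probe sets with an ending of this kind: Psma3, Psmb4, Psmb5, Psmb7, Psmc3 and Psmd12. Averaging both probe sets, the Psmb5 differences were 0.18 and 0.16. The adenoma call was lost without adenoma 5 (limma adjusted p = 0.0511). The carcinoma call was lost without WT 1, WT 2, carcinoma 1, carcinoma 2 or carcinoma 5 (limma adjusted p from 0.0545 to 0.0781). Neither call held without WT 1, 2, 4 and 5 together, where the differences of Psmb5 were 0.63 and 0.52. They were 0.35 and 0.30 with the Gapdh ratio in the fit, and 0.74 and 0.63 with the spike-in signal in it, also without a call.

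Psmb6, the catalytic subunit with caspase-like activity, was near the floor on this array. Its WT signal ranged from the floor of 5.55 to 8.65, with a median of 6.85. On adenoma 1 to 5 it was 6.37, 5.55, 5.55, 5.68 and 8.07, and on carcinoma 1 to 5 it was 5.55, 5.55, 5.55, 6.55 and 8.16. The groups overlapped across their whole range, and 7 of the 16 arrays were at the floor. The log2 differences from WT of -0.63 ± 0.62 and -0.61 ± 0.62 had limma adjusted p of 0.564 and 0.579.

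Psmb7, the catalytic subunit with trypsin-like activity, had opposite signs in the 2 tumours. It ranged from 7.92 to 9.04 in WT, with a median of 8.25. Adenoma 1 to 5 gave 7.99, 7.17, 7.31, 7.77 and 9.28, and carcinoma 1 to 5 gave 8.62, 8.08, 8.20, 9.45 and 9.91. Adenoma 2, 3 and 4 were below every WT array and carcinoma 4 and 5 above, but the other tumour arrays lay within the WT range or, for adenoma 5, above it. The differences from WT were -0.46 ± 0.39 and 0.49 ± 0.39 (limma adjusted p = 0.508 and 0.470). Between the tumours Psmb7 was 0.95 ± 0.41 higher in carcinoma, the 1 of 39 genes with an unadjusted p under 0.05 there, 0.0323, which the adjustment over all genes did not keep (limma adjusted p = 1).

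The 3 immunoproteasome subunits, given here as the counterparts of Psmb5, Psmb6 and Psmb7, all fell in both tumours. Psmb8, the counterpart of Psmb5, ranged from 9.43 to 11.51 in WT (median 10.62). It was 8.46, 8.50, 8.84, 8.25 and 8.76 on adenoma 1 to 5, and 8.95, 8.45, 8.36, 7.92 and 8.30 on carcinoma 1 to 5. No tumour array reached the WT range. Psmb9, the counterpart of Psmb6, ranged from 9.67 to 10.39 in WT (median 10.13), and its highest tumour value was 8.27, on carcinoma 5. Adenoma 4 and carcinoma 4 were at the floor for Psmb9. Psmb10, the counterpart of Psmb7, ranged from 11.13 to 12.46 in WT (median 11.84), and its highest tumour value was 11.09, on carcinoma 1. The log2 fold changes of Psmb8 were -1.89 ± 0.33 and -2.05 ± 0.33 in adenoma and carcinoma. Those of Psmb9 were -2.86 ± 0.45 and -2.72 ± 0.45, and those of Psmb10 were -1.36 ± 0.31 and -1.30 ± 0.31, with limma adjusted p for the 6 values between 0.000405 and 0.0113. With array medians aligned, Psmb10 gave -1.07 and -0.97 and was not called. Without WT 1, 2, 4 and 5, which leaves WT 3 and WT 6, Psmb10 gave -1.43 ± 0.40 and -1.36 ± 0.40. Psmb9 then gave -2.78 ± 0.70 and -2.64 ± 0.70 and Psmb8 in adenoma -1.40 ± 0.35, none of them called. With the Gapdh ratio in the fit, Psmb8 gave -1.73 ± 0.58 and -1.91 ± 0.54, again without a call. Psmb10 gave -1.84 ± 0.53 and -1.73 ± 0.50, also not called. The SE of these values were larger than in the fit of all arrays without a covariate. Psmb8 in carcinoma kept its call without WT 1, 2, 4 and 5, and Psmb9 kept both calls with the Gapdh ratio. With the spike-in signal in the fit, all 6 values were still called.

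T and B cells carry the immunoproteasome, and markers of T, B and plasma cells were lower in the tumour captures. In such bulk samples, fewer cells of a type and less RNA per cell cannot be told apart. The summed intensity of 12 measured T, B and plasma cell markers was 2077 to 3360 in WT, 1120 to 1511 in adenoma and 1189 to 2219 in carcinoma. All 10 of them that were tested had negative differences in both tumours, with 4 called lower in adenoma and 2 in carcinoma. Of all genes tested, 4.25% and 4.90% were called lower, and 40.1% and 41.1% were above 0. Among all genes with a mean signal under 6.77, 24.1% and 23.4% were above 0. Cd3e and Cd3g were at the floor on every tumour array, but Cd3e averaged 5.86 in WT, near the floor. Cd3g was too dim to be tested. The part of T, B and plasma cells in the fall of Psmb8, Psmb9 and Psmb10 was not tested.

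Within arrays, the change of each catalytic subunit was set against that of its counterpart, and 4 of the 6 comparisons of a pair with WT passed the threshold. The log2 signal of Psmb5 minus that of Psmb8 was higher than in WT by 2.86 ± 0.40 (SE) in adenoma and 2.91 ± 0.43 in carcinoma, each with a two-sided exact permutation p of 0.00433, which is 0.0195 after adjustment over 9 tests. The Psmb6 minus Psmb9 difference was higher by 2.23 ± 0.73 in adenoma, with an exact p of 0.0217 that became 0.0487 on adjustment. This value depends on the floor, at which Psmb6 lay on 7 arrays and Psmb9 on 2. The same pair's 2.11 ± 0.83 in carcinoma had an exact p of 0.0346, or 0.0623 adjusted. For Psmb7 minus Psmb10 the value in adenoma was 0.91 ± 0.50, with 0.104 as the exact permutation p and 0.156 as the adjusted one. In carcinoma that pair gave 1.79 ± 0.57, with an exact permutation p of 0.0108, adjusted to 0.0325. The smallest p these tests can give is 0.00216. None of the 3 pairs differed between carcinoma and adenoma past the threshold, with unequal changes of 0.06 ± 0.22, -0.11 ± 0.84 and 0.88 ± 0.61 (exact permutation p = 0.818, 0.849 and 0.151). Scaling cancels within an array except through the floor, and the fall of the immunoproteasome genes was known when these pairs were chosen. With the other Psmb5 probe set, the first pair gave 1.28 and 1.51, no longer past the threshold (adjusted exact permutation p = 0.0857 and 0.0779). That was the exception among 20 alternative settings, of which the first pair passed in 19 in each tumour, averaged probe sets included. The Psmb6 pair in adenoma passed in 5 of 18 alternative settings, and its call was lost on leaving out any adenoma array, any WT array but WT 4, or carcinoma 4 or 5, which enter only through the adjustment. In carcinoma that pair passed without WT 4 (2.48, adjusted exact permutation p = 0.0179). The Psmb7 pair in carcinoma passed in 11 of 18, and its call was lost on leaving out any WT array but WT 5, or carcinoma 4 or 5.

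**Figure D4:**
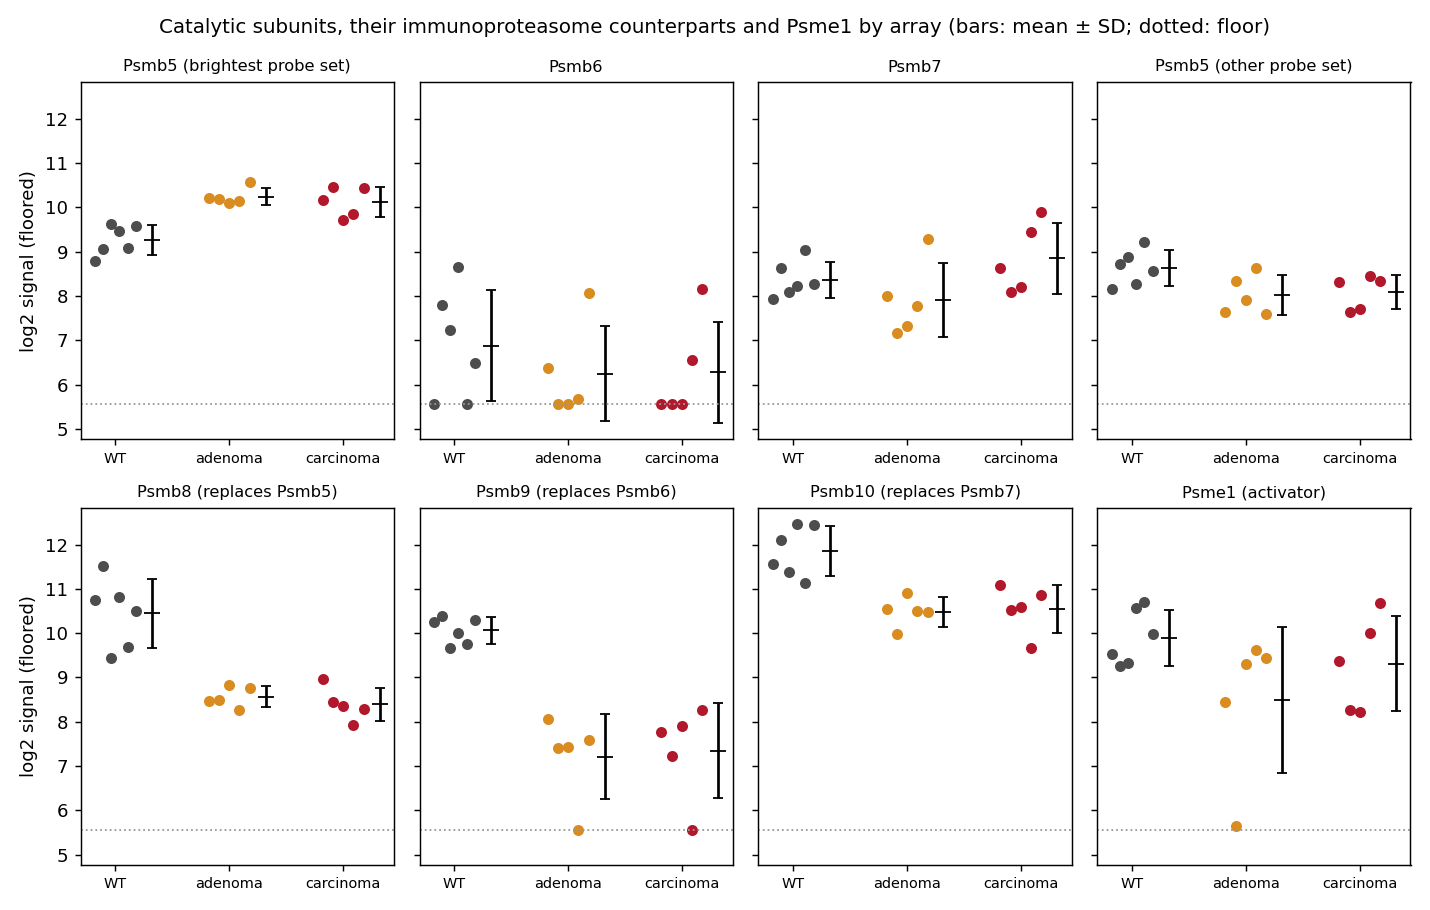
Log2 signal by array (points; bars are mean ± SD; dotted line, floor at 5.55) of Psmb5 by both probe sets, Psmb6, Psmb7, their immunoproteasome counterparts Psmb8, Psmb9 and Psmb10, and the activator Psme1, in WT (n = 6), adenoma (n = 5) and carcinoma (n = 5). Every tumour array lies above WT for the brighter Psmb5 probe set and below WT for Psmb8, Psmb9 and Psmb10, while Psmb6, Psmb7 and Psme1 overlap.

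The other 4 beta ring genes, Psmb1 to Psmb4, encode subunits without a catalytic site that complete the chamber. All 4 averaged higher in both tumours, and none was called. Psmb1 ranged from 11.53 to 12.43 in WT (median 12.13), and was 12.82, 12.46, 12.68, 11.96 and 12.67 in adenoma and 13.17, 12.56, 12.72, 12.34 and 12.77 in carcinoma. Adenoma 4 and carcinoma 4 lay within the WT range and the other tumour arrays above it. The differences of Psmb1 were 0.45 ± 0.24 and 0.65 ± 0.24 (limma adjusted p = 0.284 and 0.107). Psmb4 gave 0.50 ± 0.28 and 0.67 ± 0.28 (limma adjusted p = 0.313 and 0.150), and 3 carcinoma arrays lay within its WT range of 11.45 to 12.88. For Psmb2 the difference was larger in adenoma, 0.80 ± 0.33, than in carcinoma, 0.49 ± 0.33 (limma adjusted p = 0.152 and 0.384). Its WT arrays spread from 8.71 on WT 1 to 10.71 on WT 5, a range that held all tumour arrays but adenoma 4, at 10.91, and carcinoma 4, at 10.81. Dimmer probe sets gave smaller or opposite differences: 0.08 ± 0.28 and 0.01 ± 0.28 for Psmb1, and -0.32 ± 0.44 and -0.09 ± 0.44 for Psmb4.

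The 7 alpha ring genes form the gate of the core, through which substrates enter. Their median differences were 0.40 in adenoma and 0.50 in carcinoma, with 6 of 7 above 0 in each and none called. Psma5 had the largest difference of the ring in adenoma. Its WT values ranged from 9.28 to 10.56, with a median of 9.99, while adenoma 1 to 5 gave 11.33, 10.25, 11.36, 10.16 and 11.47, and carcinoma 1 to 5 gave 11.59, 10.76, 10.61, 9.92 and 10.04. Adenoma 2 and 4 and carcinoma 4 and 5 lay within the WT range, and the rest above it. The difference of Psma5 was 1.03 ± 0.35 in adenoma (limma adjusted p = 0.0796), and it was called without adenoma 4 or without WT 6. In carcinoma it was 0.70 ± 0.35 (limma adjusted p = 0.231). Over 29 alternative settings the difference of Psma5 ran from 0.22 to 1.33 in adenoma and from -0.11 to 1.03 in carcinoma.

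Psma2 was more even across the carcinoma arrays. It ranged from 9.50 to 10.42 in WT (median 9.94), was 10.53, 10.49, 9.81, 10.19 and 11.01 in adenoma, and 10.57, 10.56, 10.33, 10.85 and 10.45 in carcinoma. Only carcinoma 3 of the carcinoma arrays lay within the WT range. The differences were 0.46 ± 0.25 and 0.61 ± 0.25 (limma adjusted p = 0.278 and 0.135). The other alpha genes, Psma1, Psma3, Psma4, Psma6 and Psma7, had adjusted p of 0.253 or more. Psma4 was the alpha gene below 0, at -0.06 ± 0.43 and -0.02 ± 0.43.

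The 6 ATPase genes, Psmc1 to Psmc6, encode the ring that unfolds substrates and threads them into the core. Their medians were 0.30 in adenoma and 0.64 in carcinoma, with 4 of 6 above 0 in each and none called. Psmc1 had the largest difference of the 39 genes in carcinoma. It ranged from 7.89 to 9.90 in WT (median 9.50), was 10.31, 9.48, 10.16, 9.08 and 10.61 on adenoma 1 to 5, and 10.45, 10.28, 10.12, 10.40 and 10.34 on carcinoma 1 to 5. All carcinoma arrays lay above WT and close together (SD 0.13), whereas the WT arrays held 1 low value, on WT 5. The difference was 1.04 ± 0.34 in carcinoma (limma adjusted p = 0.0626) and 0.65 ± 0.34 in adenoma (limma adjusted p = 0.264). Psmc1 in carcinoma passed the threshold in 5 of 29 alternative settings, among them a variance trend with robust estimation and leaving out WT 6 or adenoma 4. Over these settings its difference ran from 0.36 to 1.36 in carcinoma and from -0.03 to 0.94 in adenoma.

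Psmc2 was also close together in carcinoma, at 11.99, 11.76, 12.06, 12.10 and 12.01, but WT 6, at 12.24, lay above all of these. Its differences were 0.37 ± 0.29 and 0.69 ± 0.29 (limma adjusted p = 0.462 and 0.141), and without WT 6 the carcinoma value was 0.88 and was called. Over the alternative settings they ran from -0.23 to 0.67 in adenoma and from 0.09 to 1.02 in carcinoma. Psmc5 gave 0.22 ± 0.30 and 0.58 ± 0.30 (limma adjusted p = 0.689 and 0.244). Its values ran from -0.48 to 0.52 and from -0.20 to 0.90 over the alternative settings. A second, dimmer Psmc5 probe set, at the floor on 8 arrays, gave -0.80 ± 0.42 and -0.98 ± 0.42. Psmc3 differed by -0.06 ± 0.24 and -0.02 ± 0.24 by its brightest probe set and by 0.31 ± 0.26 and 0.28 ± 0.26 by the next, and Psmc4, with 4 arrays at the floor, by -0.12 ± 0.47 and -0.34 ± 0.47. Psmc6 gave 0.67 ± 0.54 and 0.89 ± 0.54, with the widest spread of the ring.

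Of the 11 non-ATPase genes, 9 were above 0 in each tumour, with medians of 0.25 and 0.32, and none was called. Psmd6 belongs to the lid, the part of the regulatory particle that holds the deubiquitinase. It ranged from 9.25 to 10.09 in WT (median 9.71), was 9.88, 9.79, 9.59, 10.49 and 11.18 in adenoma, and 10.43, 10.14, 10.42, 10.70 and 10.67 in carcinoma. The carcinoma arrays lay above every WT array, and 3 of the 5 adenoma arrays lay within the WT range. The differences were 0.53 ± 0.28 and 0.82 ± 0.28 (limma adjusted p = 0.275 and 0.0778).

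Psmd12, another lid subunit, ranged from 9.96 to 11.18 in WT (median 10.75). It was 11.61, 11.62, 11.72, 10.49 and 11.61 on adenoma 1 to 5, and 11.87, 11.66, 11.40, 11.31 and 11.07 on carcinoma 1 to 5. Adenoma 4 and carcinoma 5 lay within the WT range and the other 8 tumour arrays above it. The differences were 0.73 ± 0.29 and 0.79 ± 0.29 (limma adjusted p = 0.140 and 0.104), and without adenoma 4 the adenoma value of Psmd12 was 0.96 and was called. Over the alternative settings they ran from 0.17 to 1.03 in adenoma and from 0.22 to 1.11 in carcinoma. Psmd14, the deubiquitinase of the lid, gave 0.74 ± 0.41 and 0.79 ± 0.41 (limma adjusted p = 0.288 and 0.246). Psmd1, a large scaffold of the base, had differences of 0.45 ± 0.24 and 0.54 ± 0.24 (limma adjusted p = 0.281 and 0.181). Its WT arrays lay between 10.98 and 11.29, apart from 11.88 on WT 5. Psmd3, a lid subunit, was the lowest of the 11 genes, at -0.47 ± 0.26 and -0.32 ± 0.26. Psmd4, a receptor for ubiquitin chains, gave 0.56 ± 0.33 and 0.47 ± 0.33, and the remaining 5 of these genes, Psmd2, Psmd7, Psmd8, Psmd11 and Psmd13, lay between -0.12 and 0.32. The dimmer probe sets of Psmd11 had the opposite sign to its brightest one, which gave 0.25 ± 0.27 and 0.08 ± 0.27. They gave -0.44 ± 0.30 and -0.21 ± 0.27 in adenoma, and -0.35 ± 0.30 and -0.09 ± 0.27 in carcinoma.

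Psmd5, Psmd9 and Psmd10 encode chaperones that assemble the base of the regulatory particle and then leave it. Psmd5 averaged 0.52 ± 0.27 higher in adenoma and 0.11 ± 0.27 in carcinoma (limma adjusted p = 0.251 and 0.829). Psmd9 showed the larger difference in carcinoma, 0.55 ± 0.22, and 0.32 ± 0.22 in adenoma (limma adjusted p = 0.136 and 0.412). Psmd10, also named gankyrin, was at the floor on 7 arrays and differed by 0.03 ± 0.37 and 0.11 ± 0.37.

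Among the activators, which open the core without the ATPase ring, Psme1 and the other 2 had opposite signs. Psme1 is induced by interferon and forms a ring with Psme2. It ranged from 9.25 to 10.71 in WT (median 9.75), was 8.44, 5.64, 9.30, 9.62 and 9.43 on adenoma 1 to 5, and 9.37, 8.27, 8.22, 10.001 and 10.68 on carcinoma 1 to 5. Adenoma 1 and 2 and carcinoma 2 and 3 lay below WT, adenoma 2 far below, and the other tumour arrays within the WT range. The differences were -1.41 ± 0.61 and -0.59 ± 0.61 (limma adjusted p = 0.176 and 0.590), and without adenoma 2 the adenoma value of Psme1 was -0.69.

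Psme3, which forms an activator ring in the nucleus, was dim. It was at the floor on 3 of 6 WT arrays and ranged up to 7.63, on WT 3. In adenoma it was 7.50, 7.68, 7.17, 5.83 and 7.23, and in carcinoma 5.78, 8.14, 7.25, 7.56 and 6.37. The differences were 1.02 ± 0.46 and 0.96 ± 0.46 (limma adjusted p = 0.187 and 0.208), and the floor bounds the WT values from below, so they understate any difference. Psme4, a large single-chain activator, ranged from 7.43 to 8.88 in WT (median 8.43), was 9.80, 8.97, 8.42, 8.78 and 9.60 in adenoma, and 9.53, 9.42, 9.22, 8.77 and 8.19 in carcinoma. In each tumour 3 arrays lay above WT and 2 within its range. The differences of Psme4 were 0.91 ± 0.34 and 0.83 ± 0.34 (limma adjusted p = 0.115 and 0.143). The 2 genes that encode no subunit, chaperone or activator gave 1.18 ± 0.48 and 0.80 ± 0.48 (Psmc3ip) and 0.10 ± 0.24 and 0.00 ± 0.24 (Psme3ip1), none called. Without them the medians of the other 37 genes were again 0.40 and 0.50.

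Between carcinoma and adenoma, none of the 39 genes was called, 0 of 39 against 0.0268% of all genes, which are 2 genes, and in no gene were the groups apart. The median difference was 0.04, with 23 genes above 0, against 0.01 and 50.8% for all genes. Apart from Psmb7, no proteasome gene had an unadjusted p under 0.05 in this comparison, against 0.845% of all genes higher and 1.64% lower, and groups were wholly apart in 0.161% and 0.376% of all genes. The SE of a single gene was 0.23 to 0.64, so that differences of the size seen between tumour and WT were not detectable in most genes.

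Within the groups, some proteasome genes varied together from array to array and others in the other direction, as many of all genes tested also did. Psmc6 was taken as the reference after its values were seen, because it spread most within groups among the proteasome genes in the brightest 25%, and what follows is a description without a test. Its signal ranged from 9.62 on WT 5 to 12.71 on WT 6, was 13.10, 12.74, 12.83, 10.94 and 12.50 on adenoma 1 to 5, and 13.39, 13.07, 13.32, 12.04 and 11.40 on carcinoma 1 to 5. WT 5, adenoma 4 and carcinoma 5 were thus the lowest of their groups. Over the deviations of the 16 arrays from their group means, 11 of the other 38 genes had a Pearson r above 0.5 with Psmc6, and 6 of 38 without WT 5 and adenoma 4, the 2 arrays farthest from the median. Of all other genes tested, 17.9% had an r above 0.5 with it over the 16 arrays. The closest were Psmd12 (r = 0.91, Spearman's rho 0.81), Psma4 (r = 0.90, rho 0.70), Psma3 (r = 0.88, rho 0.89) and Psmd14 (r = 0.87, rho 0.78). Without WT 5 and adenoma 4, r for these genes was 0.83, 0.78, 0.78 and 0.81.

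Another 7 of the 38 genes had an r below -0.5 with Psmc6, against 23.7% of all other genes tested, led by Psmb3 (r = -0.78, rho -0.66), Psmb2 (r = -0.71, rho -0.53) and Psmd1 (r = -0.68, rho -0.48). Without WT 5 and adenoma 4 these were -0.62, -0.48 and -0.55. Psmb3, a beta ring gene, was 11.01 on WT 5 and 7.65 on WT 1, was 9.25, 10.08, 9.96, 10.88 and 10.36 on adenoma 1 to 5, and 9.24, 9.57, 9.35, 10.41 and 10.96 on carcinoma 1 to 5. It was thus highest where Psmc6 was lowest in each of the 3 groups. The set that followed Psmc6 held genes of the core, such as Psma3 and Psma4, and of the regulatory particle, such as Psmd12 and Psmd14. The arrays share their spike-in signal and their RNA quality across genes. Of the 39 genes, 14 had an r below -0.5 between their deviations and those of the spike-in signal, and 1 had an r above 0.5, also over 16 arrays, against 14.6% and 17.9% of all genes tested. Psmc6 (r = -0.72) and all 11 genes that varied with it were among the 14, and the part of the spike-in signal in their shared variation was not tested.

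**Figure D5:**
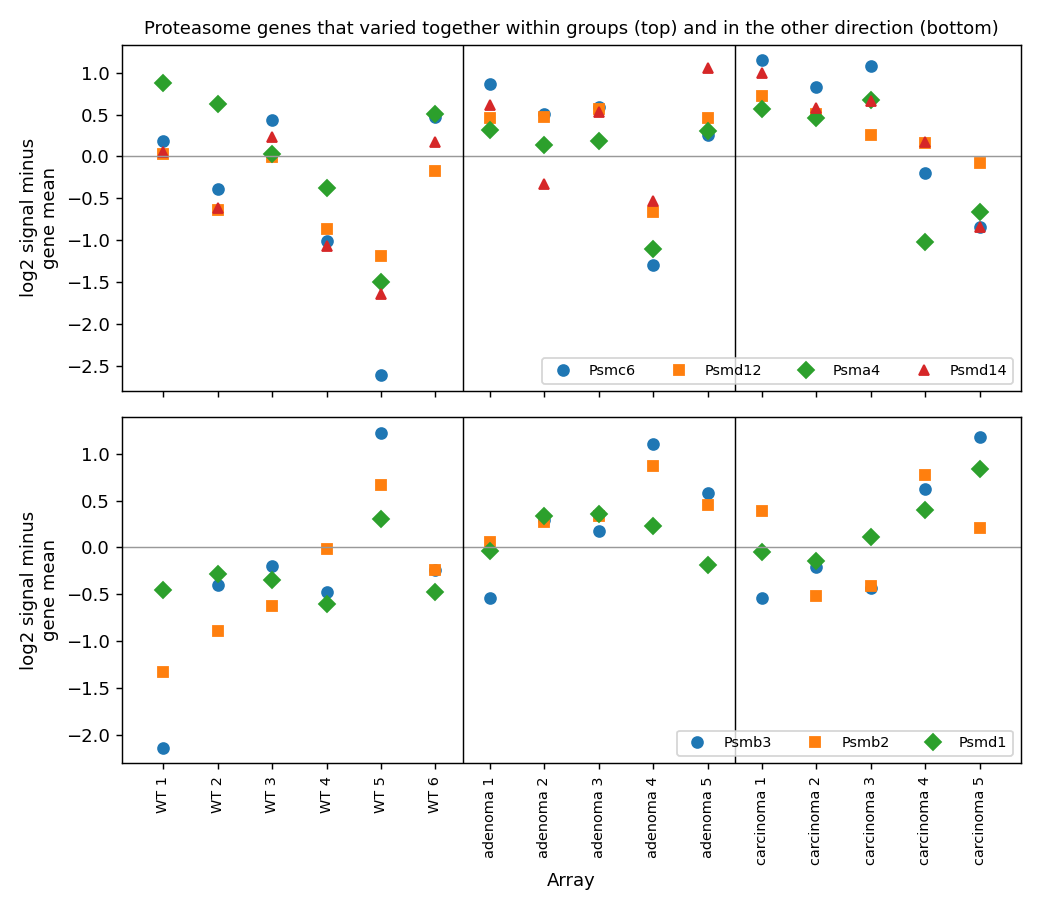
Log2 signal minus the gene's mean (vertical axis) on each array (horizontal axis; vertical lines part the groups) for Psmc6 and 3 genes that varied with it (top) and for 3 genes that varied in the other direction (bottom). On WT 5, adenoma 4 and carcinoma 5 the points of Psmc6 are the lowest of their groups, and those of Psmb3 the highest.

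Of the genes that assemble or regulate the proteasome, 19 of 26 listed had a probe set of their own here, all 19 were tested, and none was called in either tumour. Their medians were 0.10 and 0.08, between those of all genes and of the subunits. Pomp and Psmg1, chaperones of the core, gave 0.11 ± 0.30 and 0.23 ± 0.24 in adenoma, and -0.17 ± 0.30 and 0.45 ± 0.24 in carcinoma. Nfe2l1, the transcription factor that raises proteasome genes when the protease is inhibited, gave -0.41 ± 0.24 and -0.34 ± 0.24 (limma adjusted p = 0.330 and 0.412). Usp14, a deubiquitinase that binds the regulatory particle, was the highest of the list, at 0.56 ± 0.34 and 0.76 ± 0.34 (limma adjusted p = 0.355 and 0.185). These 4 were named after their values were seen. Of 18 listed genes of ubiquitin and its conjugation, 10 were tested, with medians of 0.07 and -0.04 and none called.

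Markers of some other cell types differed between the captures as well. Of all genes tested, 4.02% and 4.16% were called higher in adenoma and carcinoma, and 4.25% and 4.90% lower. The summed intensity of 6 mast cell markers was 418 to 1131 in WT, 3068 to 8243 in adenoma and 1851 to 3865 in carcinoma, with 3 of 6 called higher in each tumour. All 6 were above 0 in adenoma and 5 in carcinoma, where Kit gave -0.55 ± 0.38. Smooth muscle markers (7 genes) summed to 4215 to 7205 in WT, 2520 to 6843 in adenoma and 1500 to 2972 in carcinoma. Acta2 and Myh11 were called lower in each tumour, but Myl9 was called higher in adenoma. Fibroblast markers (7 genes) summed to 4555 to 9041 in WT, 6521 to 9873 in adenoma and 8778 to 16468 in carcinoma. None was called in adenoma, and Col1a1 and Dcn were called higher in carcinoma. Endothelial markers (7 genes) summed to 2704 to 6126, 3951 to 10168 and 3635 to 10775, with Cdh5 called higher in adenoma and none called in carcinoma. Those of macrophages and neutrophils (12 genes) summed to 3646 to 18350, 4813 to 11963 and 7185 to 14867, with none of the 11 tested called in either tumour. Proteasome subunits are made in all of these cells, and the part of the cell mixture in the higher median of the 39 genes was not tested.

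The upstream sequences of the proteasome genes were searched for 3 motifs on both strands. RefSeq gave the 250 bases before a start for 33 of the 39 genes and for 27025 genes in all. TGACNNNGC was in the upstream stretch of 5 of the 33 genes, 15.2%, against 11.5% of all genes. CCAAT, which NF-Y binds, was in 14 of 33, 42.4%, against 37.5%, and the repeat of the interferon-stimulated response element (GAAA, any 2 bases, GAAA) in 3 of 33, 9.09%, against 3.46%. Of the 3 immunoproteasome genes, CCAAT was in 1, Psmb9, and the other 2 motifs in none. Besides Psmb5, the genes with a match to TGACNNNGC were Psmb6, Psmc6, Psmd12 and Psmd9. Their matches are shown in capitals within 60 bases of the upstream stretch, all on the plus strand of GRCm38.p6 and 5′ to 3′, because they set the called gene Psmb5 beside genes that were not called. The stretches are chr11:70525297-70525356 (Psmb6), chr14:45329574-45329633 (Psmc6), chr11:107479278-107479337 (Psmd12) and chr5:123228130-123228189 (Psmd9).
Psmb6: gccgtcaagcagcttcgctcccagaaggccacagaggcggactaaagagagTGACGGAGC
Psmc6: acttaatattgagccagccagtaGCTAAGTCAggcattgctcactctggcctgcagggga
Psmd12: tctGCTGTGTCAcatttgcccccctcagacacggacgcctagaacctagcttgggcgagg
Psmd9: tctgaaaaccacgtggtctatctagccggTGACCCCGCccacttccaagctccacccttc

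The match of Psmb6 lies 9 to 1 bases before the start and that of Psmd9 31 to 23 bases before it. In Psmc6 and Psmd12 the capitals read as the reverse complement of the motif, 227 to 219 and 247 to 239 bases before the start. The changes of these 4 genes in adenoma ran from -0.63 (Psmb6) to 0.73 (Psmd12), with 0.67 for Psmc6 and 0.32 for Psmd9. A match describes letters in this window only.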

How the data were processed

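The authors deposited probe set intensities on a linear scale, 1 value per array for 12488 probe sets, and per the labels the cells were laser-captured, the RNA amplified and the kits' own protocols followed. The sources used here do not name the software behind them. With 2% trimmed from both tails, array means were 500.31 to 500.43, so the deposited values were taken as already scaled. A floor of 46.9, the 25th percentile over all arrays, replaced lower values before log2 was taken. The 66 control probe sets were left out. Symbols came from the platform annotation, with 10817 probe sets found by identifier in the GRCm38.p6 RefSeq table. Of the probe sets, 10833 had 1 symbol, 396 had several and 1193 were unnamed. For each gene the probe set with the highest mean log2 value was used, and a gene was tested if at least 5 of 16 arrays exceeded the floor.

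The 3 groups, taken from the titles, entered 1 fit by limma 3.58.1 under R 4.3.3 (lmFit, then eBayes, two-sided), which leaves 13 residual degrees of freedom, with Benjamini-Hochberg adjustment over 7455 genes at 0.05. Pairs of genes were compared within arrays by two-sided exact permutation tests, adjusted over 9 tests. The fit was tested on simulated data. No arrays held identical values, and no column was left unused. Alternatives were 2 scalings, 2 floors, 2 filters, averaged probe sets, a replicate block, the groups compared alone, a variance trend, 2 covariates, a fit without the 4 WT arrays brightest in spike-in signal, and leaving out each array. Alternatives chosen after seeing the data were the comparison by level of signal, the fit of each probe set, and the Psmb5 pair with its other probe set or with averaged probe sets.

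Named in full were members with an adjusted p under 0.05, the 3 catalytic subunits, the activators and, up to 20, those with the smallest p. Other members are given by count or range, and any named beyond this rule were chosen after their values were seen. The members and lists were chosen with earlier results of these data known. Upstream sequences are RefSeq's for GRCm38.p6, searched without the 50 bases after the start so that no transcribed sequence was included. Plots used matplotlib 3.10.9 under Python 3.11.15.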

Additional observations from a re-analysis of the deposited data

Results flagged for a closer look

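In 8 of 69 groups of arrays looked at (23 genes in 3 groups), 1 array lay far from the rest of its group, by the gap to its nearest neighbour as a share of the group's range. Chance alone gives this in about 1 group of 20. Psmb5 was 10.58 on adenoma 5, next to 10.22 on the nearest array of the group. Psmd12 was 10.49 on adenoma 4 (nearest 11.61), Psme3 was 5.83 on the same array (nearest 7.17), and Psmb9 was at the floor there, 5.55 (nearest 7.40). On WT 5, Psmc1 was 7.89 (nearest 9.33) and Psmd1 was 11.88 (nearest 11.29). Psme3 was 7.63 on WT 3 (nearest 6.19), and Psmc3ip was 5.77 on carcinoma 1 (nearest 7.67). So 3 of the 8 values were on adenoma 4 and 2 on WT 5, the arrays that were also lowest of their groups in Psmc6.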

How the results depend on the processing

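The count of proteasome genes called against WT, 1 in each tumour, ranged from 0 to 3 in both comparisons when each array was left out in turn. It was 0 in adenoma and 0 in carcinoma on averaging the probe sets of each gene, with the Gapdh ratio or the spike-in signal as a covariate, or without WT 1, 2, 4 and 5, and 0 in carcinoma with only the groups compared. In adenoma it was 2 after quantile normalization and with array medians aligned (Psmb5 and Psmc3ip). In carcinoma it was 7 with array medians aligned (Psma2, Psmb1, Psmb5, Psmc1, Psmd1, Psmd6 and Psmd9), and 2 with a floor at the 40th percentile or a variance trend (Psmb5 and Psmc1). The cause was not tested, except that fewer arrays or fewer groups enter some of these fits. Carcinoma against adenoma gave 0 calls in every setting run.

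With the replicate number as a block, 1 gene was called in adenoma and 3 in carcinoma (Psmb5, Psmc2 and Psmd6). WT 6 has no partner of its number and so drops out of that fit, and leaving out WT 6 alone also called 3 in carcinoma (Psmb5, Psmc1 and Psmc2). Same-numbered arrays correlated between -0.27 and 0.40, with 7 of 15 above 0.1. An array correlated best with its own number for 1, 3 and 2 of 5 numbers in the 3 comparisons. With only 5 numbers in each comparison, these values cannot decide whether the numbers pair the arrays.

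The unequal change of Psmb6 and Psmb9 in adenoma was 2.28 with the floor at the 10th percentile (adjusted exact permutation p = 0.102), and in carcinoma 2.19 at the 40th (0.00974). Leaving out arrays, it ranged from 1.86 to 2.59 in adenoma and from 1.59 to 2.48 in carcinoma, and that of Psmb7 and Psmb10 in carcinoma from 1.42 to 2.07. With the other Psmb5 probe set, the Psmb5 and Psmb8 values were 1.28 and 1.51. Apart from the other Psmb5 probe set, which gave -0.61 and -0.54, no called result changed sign.

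Calls over all genes fell from 617 and 675 to 196 and 217 without WT 1, 2, 4 and 5, to 70 and 100 with the Gapdh ratio, and to 398 and 382 with the spike-in signal. The share of calls that were higher was 48.6% and 45.9%, against 62.8% and 58.9% after quantile normalization and 75.9% and 73.7% with array medians aligned. Gene signal near the floor (Psmb6, Psmc4, Psmd2, Psmd10, Psme3 and Psmc3ip) limits the precision of their values.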
